A study of Mus musculus with 6 samples.

Results

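Transcripts of 10 genes of endoplasmic reticulum (ER) protein folding and of the XBP1 and ATF6 arms of the unfolded protein response were compared between IL-4-treated bone marrow-derived macrophages (BMDMs) with and without *Acly*, which encodes ATP citrate lyase. The genes were taken by name as *Xbp1*, *Hspa5*, *Hsp90b1*, *Calr*, *Dnajb9*, *Edem1*, *Sdf2l1*, *Pdia4*, *Pdia6* and *Creld2*, and the transcript row with the most counts in all 6 libraries together stood for each gene. They are 10 of 24445 genes, and all 10 were among the 12023 genes that passed the filter on low counts. *Hspa5* was 23.5% higher and *Calr* 7.79% higher in AclyM-KO than in Ctrl, while the other 8 transcripts did not pass the test. Thus 2 of the 10 passed as higher and 0 as lower, beside 12.4% and 12.6% of all genes tested. The call of *Hspa5* held in all 15 alternative fits, and that of *Calr* was lost in 8 of 15. *Xbp1*, at an edgeR adjusted p of 0.0544 in the main fit, passed as lower in 6 of the 15.

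Both groups were bone marrow cells of female mice grown for 7 days with L929-conditioned medium and then given 100 U/mL IL-4 over 24 h. The AclyM-KO group (3 libraries, genotype label KO) came from C57Bl/6J mice with loxP sites around an *Acly* exon (Acly fl/fl) and Cre expressed from *Lyz2*, a gene active in macrophages, neutrophils and their precursors. The Ctrl group (3 libraries, genotype label WT) came from Acly fl/fl littermates without Cre, so its cells also carry the floxed alleles and are not wild type at this locus. The age of the mice is not given in the sources used here. Replicates are called biological in the statistics section of the study and technical, from 3 pooled mice, in a legend, so p-values here measure the spread between libraries and not between mice.

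The libraries held 12151975 to 15587283 counts on the rows used. *Acly* was present at 332, 321 and 350 counts scaled to library size (CPM) in Ctrl and at 146, 134 and 136 CPM in AclyM-KO, a change of -58.6% (edgeR adjusted p = 5.22e-10). *Lyz2*, the gene that drives Cre, had a mean of 6595 CPM (SD 515, n = 3) in Ctrl against 4142 (SD 120, n = 3) in AclyM-KO, a log2 fold change of -0.67 (edgeR adjusted p = 5.79e-08). Of 8 macrophage markers, all were detected, 1 was higher (*Adgre1*) and 4 were lower (*Lyz2*, *Mertk*, *Csf1r* and *Itgam*). Their summed share of counts was 1.35% to 1.48% in Ctrl and 1.10% to 1.14% in AclyM-KO. *Lyz2*, the gene that drives Cre, was the most abundant of the 8 and weighs most in this sum, and the share without it was not computed. Of 10 neutrophil markers, 5 could be tested and 3 were higher (*Mmp8*, *S100a8* and *S100a9*), with a summed share of 0.00339% to 0.00367% in Ctrl and 0.00639% to 0.00680% in AclyM-KO, while *Ly6g* had 1 count in all 6 libraries together. Of 6 dendritic cell markers, 2 could be tested and *Cd209a* was higher, with a summed share of 0.000278% to 0.000420% in Ctrl and 0.000387% to 0.000494% in AclyM-KO. Plasma cells and fibroblasts are rich in ER chaperones. *Igkc*, also planned as a B and plasma cell marker, matched no row and was left out. The 7 markers of B and plasma cells made up at most 0.000332% of counts in any library, with *Mzb1* at 0 throughout and *Cd79b*, the only gene tested, lower in AclyM-KO, and the 7 fibroblast markers at most 0.000149%, with none tested and *Lum* at 0 throughout. The part of any of these cells in the values below was not tested. In bulk RNA, fewer cells that express a gene and less of its RNA per cell cannot be told apart.

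When proteins in the ER fail to fold, the chaperone BiP leaves the luminal sides of the sensors IRE1, ATF6 and PERK to bind unfolded clients, and the sensors become active. IRE1 removes a short intron from *Xbp1* mRNA in the cytosol, which allows the active transcription factor XBP1s to be made, and ATF6 moves to the Golgi, where site-1 and site-2 proteases release its own transcription factor fragment. Both factors raise ER chaperones, oxidoreductases and degradation factors, and ATF6 with the CCAAT-binding factor NF-Y acts through the ER stress element (ERSE), whereas PERK acts through ATF4. Macrophages use the same machinery to fold their many secreted and surface proteins.

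The promoters of the 10 genes are shown first because several of them share the ERSE. The element was searched as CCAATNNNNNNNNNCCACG on both strands in the 250 bases before each start site in RefSeq windows of GRCm38.p6, which include all 10 genes. It was found in 37 of 32851 windows, or 0.113%, and in 5 of the 10 genes: *Hspa5*, *Hsp90b1*, *Calr*, *Pdia6* and *Creld2*. *Hsp90b1* has 2 copies. Only exact matches were counted, so sites with another base in either outer box were not searched. The 6 sites are written below along the strand on which the element reads CCAAT first, with both outer boxes in capitals.
Hspa5, bases -65 to -47, strand of the gene: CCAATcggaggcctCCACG
Hsp90b1, bases -212 to -194, strand of the gene: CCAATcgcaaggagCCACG
Hsp90b1, bases -107 to -89, other strand: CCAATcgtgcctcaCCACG
Calr, bases -162 to -144, other strand: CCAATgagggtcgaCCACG
Pdia6, bases -98 to -80, strand of the gene: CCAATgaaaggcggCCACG
Creld2, bases -126 to -108, other strand: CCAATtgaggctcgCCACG
The windows of the 3 most abundant chaperone genes are given whole, each read 5′ to 3′ along the gene's strand up to the base before the start site, with the outer boxes of each ERSE in capitals (CGTGG and ATTGG where the element lies on the other strand).
Hspa5, chr2:34771840-34772089, plus strand: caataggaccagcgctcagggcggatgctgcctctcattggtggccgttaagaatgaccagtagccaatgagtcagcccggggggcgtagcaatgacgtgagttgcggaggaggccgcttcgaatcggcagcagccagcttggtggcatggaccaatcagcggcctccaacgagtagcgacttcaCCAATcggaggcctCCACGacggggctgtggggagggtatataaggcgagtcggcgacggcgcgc
Hsp90b1, chr10:86705445-86705694, minus strand: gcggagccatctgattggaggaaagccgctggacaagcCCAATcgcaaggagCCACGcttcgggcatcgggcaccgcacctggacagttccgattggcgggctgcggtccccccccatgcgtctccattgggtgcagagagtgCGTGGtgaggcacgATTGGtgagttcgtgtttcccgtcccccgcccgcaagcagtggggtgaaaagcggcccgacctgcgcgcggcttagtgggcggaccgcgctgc
Calr, chr8:84846932-84847181, minus strand: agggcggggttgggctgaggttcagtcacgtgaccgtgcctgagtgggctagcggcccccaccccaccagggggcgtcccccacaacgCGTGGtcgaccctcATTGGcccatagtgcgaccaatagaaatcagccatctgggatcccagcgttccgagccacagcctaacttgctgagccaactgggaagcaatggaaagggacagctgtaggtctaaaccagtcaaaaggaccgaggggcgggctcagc

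The separate boxes are part of the ERSE and were counted with it. CCAAT on either strand was in 33.8% of all windows and in 9 of the 10 genes, the exception being *Xbp1*. CCACG was in 28.3% of all windows and in 8 of the 10 genes, the exceptions being *Xbp1* and *Pdia4*. Neither the ERSE-II, searched as ATTGG and CCACG with 1 base between them and present in 0.0304% of windows, nor the core TGACGTGG of the XBP1-binding element, present in 0.563%, was in any of the 10 windows. The window of *Edem1* lies inside the annotated span of that gene, so the bases before its most upstream start were not searched. The map of CCAAT and CCACG boxes shows the exact paired arrangement in 5 genes and none in the searched windows of the other 5.

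**Figure D1:**
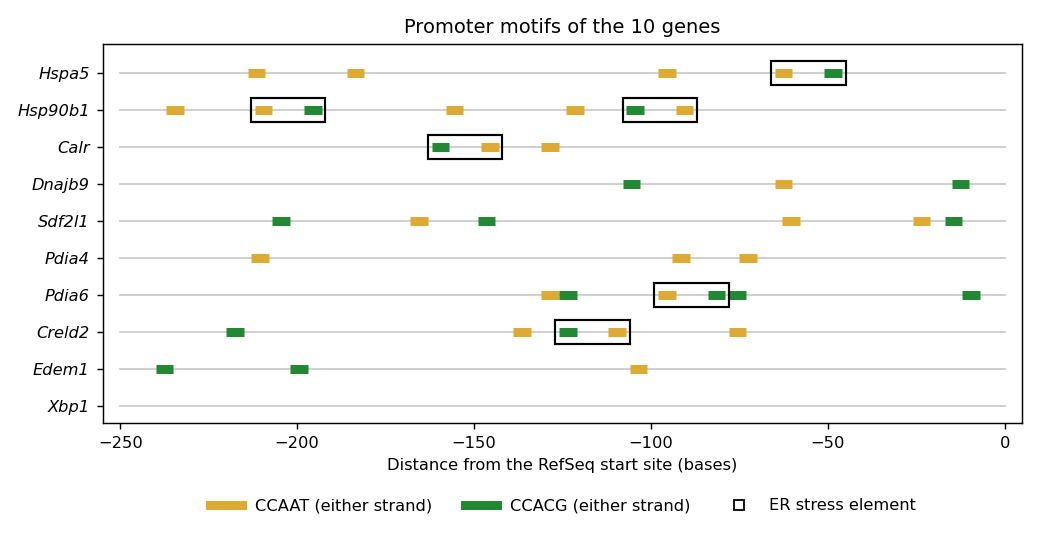
CCAAT boxes (yellow) and CCACG boxes (green) on either strand in the 250 bases before the RefSeq start site of each of the 10 genes; the x axis is the distance from the start site in bases and black frames mark each complete ERSE. The 6 frames fall in *Hspa5*, *Hsp90b1* (2), *Calr*, *Pdia6* and *Creld2*, and the *Xbp1* window holds no box of either kind.

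The level of each transcript was first put in order by CPM per kilobase of transcript (RPKM), the scale on which genes of different length can be compared. In Ctrl *Calr* led with 739 RPKM, followed by *Hspa5* with 481 and *Hsp90b1* with 471, whose library values overlapped. *Pdia4* (304 RPKM), *Pdia6* (167) and *Sdf2l1* (98.4) followed, each apart from its neighbours. *Xbp1* (79.4 RPKM) and *Edem1* (78.2) overlapped, as did *Creld2* (28.7) and *Dnajb9* (27.8) at the low end. In AclyM-KO the first 6 places were the same, with *Hspa5* at 595 and *Hsp90b1* at 456 RPKM.

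The question of the comparison was whether these transcripts differ with *Acly* genotype under IL-4. By edgeR's quasi-likelihood test at an adjusted p under 0.05, 2 of 10 rose, *Hspa5* and *Calr*, and 0 fell, beside 24.9% of all tested genes that passed in either direction, 12.4% that rose and 12.6% that fell. At an unadjusted p under 0.05, 4 of the 10 were counted, beside 4416 of the 12023 genes tested. With DESeq2, 1 rose and 0 fell. The median log2 fold change over the 10 was -0.02, beside 0.00 over all genes tested, and 4 genes lay above 0 and 6 below. When libraries were scaled by their totals alone, 1 gene rose (*Hspa5*) and 2 fell (*Xbp1* and *Edem1*). Groups did not overlap for 6 of the 10 genes, 3 in each direction, beside 40.2% of all genes tested, 20.5% with AclyM-KO higher and 19.8% with it lower. No member passed the additional limit of 0.58 on the log2 scale, which 5.55% of tested genes did, 2.98% higher and 2.57% lower. An exact permutation test of 3 against 3 libraries cannot give a p below 0.1, so it could not pass 0.05 for any gene.

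**Figure D2:**
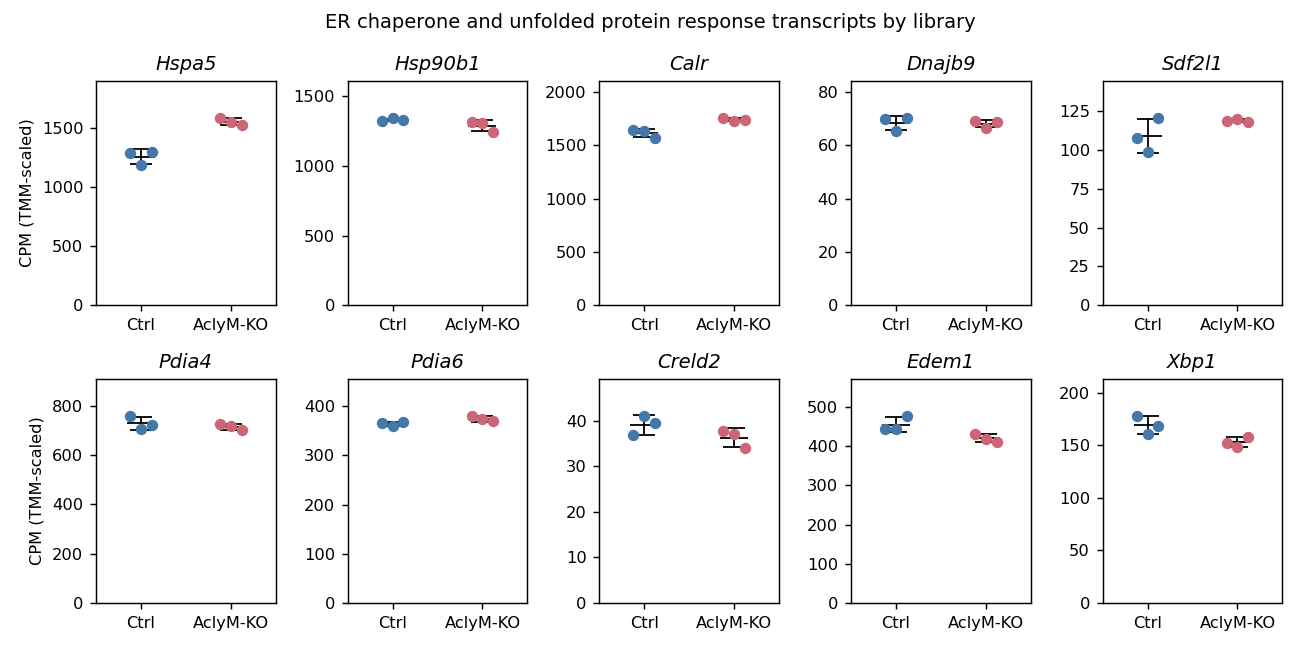
CPM after TMM scaling (y axis, from 0) of each of the 10 transcripts in the 3 Ctrl (blue) and 3 AclyM-KO (red) libraries; points are libraries and bars show the mean ± SD. *Hspa5* stands between 1185 and 1301 CPM in Ctrl and between 1527 and 1582 CPM in AclyM-KO, whereas *Dnajb9* and *Pdia4* have overlapping groups.

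The soluble and calcium-binding chaperones came first. *Hspa5* (chr2:34772090-34776529, plus strand) encodes BiP, the HSP70 chaperone of the ER lumen that also holds the stress sensors inactive. It was at 1289, 1185 and 1301 CPM in Ctrl and at 1582, 1553 and 1527 CPM in AclyM-KO. All 3 AclyM-KO libraries lay above all 3 Ctrl libraries, and the gap between the groups was wider than the range within either. The log2 fold change was 0.30 (SE 0.04, 95% interval 0.22 to 0.39), with an edgeR adjusted p of 6.85e-05. This placed *Hspa5* at rank 325 of the 12023 genes by p-value. In the alternative fits it had log2 fold changes from 0.26 to 0.32 and adjusted p up to 0.00147.

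*Calr* (chr8:84842088-84846931, minus strand) encodes calreticulin, a lectin chaperone that binds glycoproteins and stores calcium. It was at 1639, 1633 and 1568 CPM in Ctrl and at 1751, 1726 and 1739 CPM in AclyM-KO, and the groups did not overlap. The log2 fold change was 0.11 (SE 0.03, 95% interval 0.03 to 0.18), with an edgeR adjusted p of 0.0330. The call was lost in 8 of 15 alternatives, among them DESeq2 (adjusted p = 0.0570), scaling by library totals (0.0675) and the sum of the rows of each gene (0.0519). It was also lost without Ctrl replicate 3, where the log2 fold change was 0.08 (edgeR adjusted p = 0.159), and without AclyM-KO replicate 1, 2 or 3 (adjusted p = 0.148, 0.0984 and 0.0930), over a range of adjusted p from 0.00432 to 0.159 in all alternatives.

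*Hsp90b1* (chr10:86690841-86705444, minus strand) encodes GRP94, the HSP90 chaperone of the ER. Its values were 1321, 1342 and 1328 CPM in Ctrl and 1314, 1307 and 1243 CPM in AclyM-KO. The AclyM-KO libraries were all below the Ctrl libraries, but by 3.20% of the mean, and the edgeR adjusted p was 0.392 with a 95% interval of -0.13 to 0.03 on the log2 scale. By exact match, the window of *Hsp90b1* holds 2 copies of the ERSE and that of *Hspa5* holds 1, and inexact copies were not counted. The gene *1810014B01Rik*, which lies across 10.3% of the exonic bases of *Hsp90b1* on the other strand, had a mean of 1.18 CPM in each group (SD 0.284 in Ctrl and 0.442 in AclyM-KO, n = 3).

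The co-chaperones of BiP followed. *Dnajb9* (chr12:44205897-44210068, minus strand) encodes ERdj4, a J-domain protein that recruits BiP to IRE1 and to misfolded proteins and is a well-known XBP1 target. It was at 69.7, 65.4 and 70.1 CPM in Ctrl and at 69.2, 66.5 and 68.6 CPM in AclyM-KO. The groups covered almost the same range, with a change of -0.485% in the edgeR fit and an adjusted p of 0.938. The interval for the fold ran from 0.921 to 1.08.

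*Sdf2l1* (chr16:17130138-17132383, minus strand) encodes a partner of ER J-domain proteins that keeps clients from aggregating. Its 3 Ctrl libraries read 108, 99.0 and 120 CPM, against 119, 120 and 118 CPM in AclyM-KO. Ctrl replicate 3 was as high as the AclyM-KO libraries, and the groups overlapped. The difference of 8.95% did not pass the test (log2 fold change 0.12, 95% interval -0.01 to 0.26, edgeR adjusted p = 0.164). Without Ctrl replicate 3 it was called higher, at 0.19 on the log2 scale (edgeR adjusted p = 0.0252), and without Ctrl replicate 2 the log2 fold change was 0.06 (edgeR adjusted p = 0.475), so the value moved either way with 1 Ctrl library.

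The oxidoreductases were next. *Pdia4* (chr6:47796141-47813512, minus strand) encodes ERp72, which forms and rearranges disulfide bonds. Its CPM values were 758, 707 and 721 in Ctrl and 726, 718 and 702 in AclyM-KO, so the groups overlapped (edgeR adjusted p = 0.692). *Pdia6* (chr12:17266589-17284785, plus strand) encodes P5, an oxidoreductase that works with BiP and also acts on IRE1. It was at 365, 360 and 367 CPM in Ctrl and at 380, 374 and 369 CPM in AclyM-KO. The groups of *Pdia6* did not overlap, but the difference of 2.81% did not pass (edgeR adjusted p = 0.546). *Creld2* (chr15:88819646-88826681, plus strand) encodes a small disulfide isomerase-like protein that is induced by ER stress. It was at 36.8, 41.1 and 39.6 CPM in Ctrl and at 37.9, 37.2 and 34.0 CPM in AclyM-KO. The groups of *Creld2* overlapped, and its interval of the fold, 0.838 to 1.03, was the widest of the 10 on the log2 scale (edgeR adjusted p = 0.302).

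The degradation factor and the transcription factor were the lowest on the scale of change. *Edem1* (chr6:108824045-108859356, plus strand) encodes a lectin that hands misfolded glycoproteins to ER-associated degradation and is another XBP1 target. It was at 444, 444 and 477 CPM in Ctrl and at 431, 418 and 410 CPM in AclyM-KO, and all AclyM-KO libraries lay below all Ctrl libraries. The difference of -7.75% did not pass (log2 fold change -0.12, SE 0.05, edgeR adjusted p = 0.0793). It passed when libraries were scaled by their totals (adjusted p = 0.0433) and without Ctrl replicate 2, where the log2 fold change was -0.14 (edgeR adjusted p = 0.0221), over a range of 0.0221 to 0.239 in all alternatives.

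*Xbp1* (chr11:5520641-5525993, plus strand) encodes the transcription factor of the IRE1 arm and is itself an ATF6 target. It was at 178, 160 and 169 CPM in Ctrl and at 152, 148 and 158 CPM in AclyM-KO. The groups did not overlap, with Ctrl replicate 2 and AclyM-KO replicate 3 next to each other. The log2 fold change was -0.15 (SE 0.05, 95% interval -0.26 to -0.03), with an edgeR adjusted p of 0.0544. This call lay at the threshold: of 15 alternatives, 6 passed and 9 did not, with adjusted p from 0.00865, reached without Ctrl replicate 2 (log2 fold change -0.19), to 0.206. The table has 2 rows for *Xbp1*, a RefSeq transcript of the spliced and of the unspliced form, and the counts on both were identical in all 6 libraries. The splicing of *Xbp1* mRNA by IRE1 is therefore not measured by these counts.

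**Figure D3:**
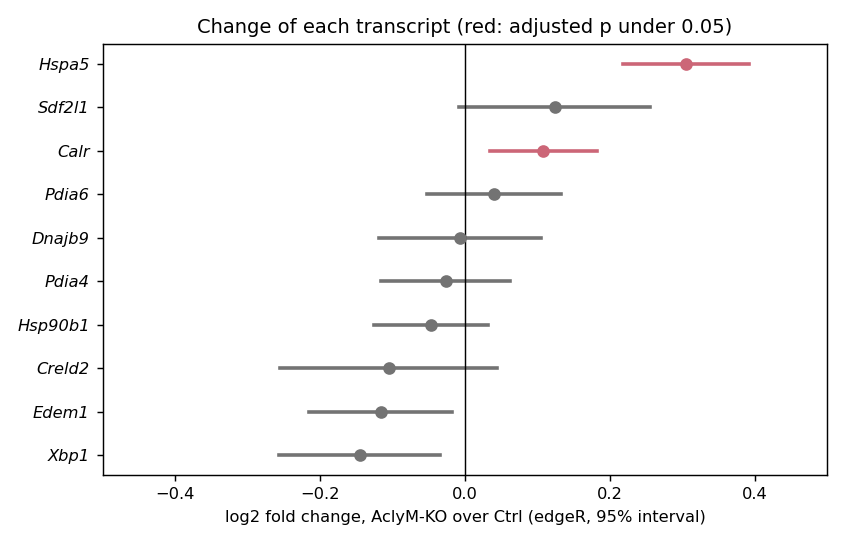
Log2 fold change of each of the 10 transcripts, AclyM-KO over Ctrl (x axis), with its 95% interval from edgeR; red marks an adjusted p under 0.05 and the vertical line marks 0. *Hspa5* (0.30) and *Calr* (0.11) are red, and the intervals of 6 genes span 0.

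Among the 8 genes that did not pass, the intervals bounded the fold between 0.837 and 1.19. The intervals of 6 of them spanned 0, and those of *Xbp1* and *Edem1* lay below 0 without passing after adjustment. Of the 5 genes with an ERSE in the window, *Hspa5* and *Calr* rose, and *Hsp90b1*, *Pdia6* and *Creld2* did not pass. Beyond the 10, 9 other tested genes had an ERSE window, of which *Canx* rose and 0 fell. With these included, 3 of 14 genes with an ERSE rose, or 21.4%, beside 12.4% of all genes tested. The median log2 fold change of the 14 was 0.03. Those that rose were *Hspa5* and *Calr*, whose calls were already known, and *Canx*. The 21.4% is therefore not a separate result, and among the 9 added genes only *Canx* rose. The group of 14 was formed by sequence alone, after the values of the 10 genes were known.

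The rise of *Hspa5* relative to the other 9 transcripts was read within libraries, where the scaling of the library cancels. *Hspa5* counts per *Hsp90b1* count were 0.9753, 0.883 and 0.9794 in Ctrl and 1.204, 1.188 and 1.229 in AclyM-KO. The order of these 2 chaperones by counts was therefore turned in every AclyM-KO library. Per *Xbp1* count, *Hspa5* had 7.25, 7.39 and 7.71 counts in Ctrl and 10.4, 10.5 and 9.68 counts in AclyM-KO, a ratio of the means of 1.37. The lowest ratio of the means was that to *Sdf2l1*, at 1.13, followed by that to *Calr*, at 1.15. For all 9 partners the groups did not overlap, and each gave an exact permutation p of 0.1, the smallest possible with 3 against 3. All 9 ratios share the *Hspa5* counts and were formed after its rise was known, so they are not 9 separate results. Over all 45 pairs among the 10 genes, the lowest adjusted p was 0.161. Of the 36 ratios without *Hspa5*, 19 did not overlap between groups. These 36 reuse the same 9 genes and are not separate results. The share among pairs of all genes tested was not computed, so the 19 are a description only.

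**Figure D4:**
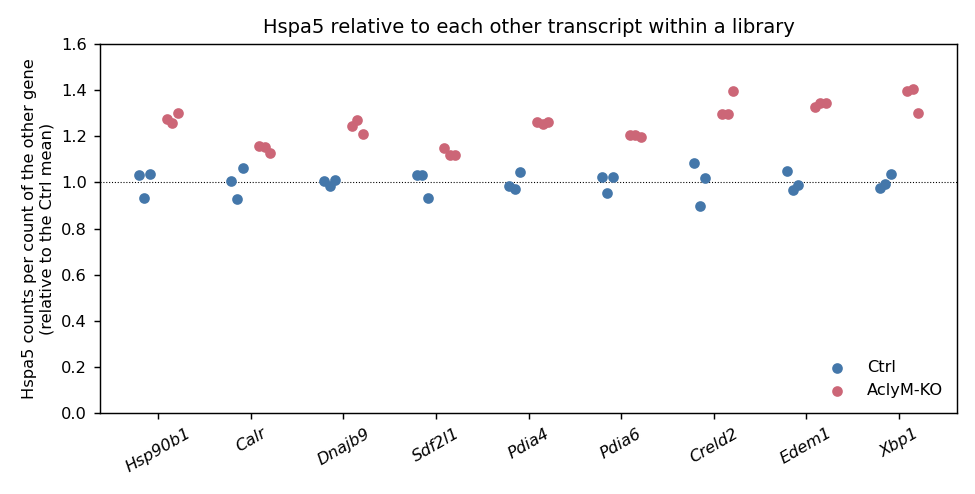
Counts of *Hspa5* per count of each other transcript in the same library, divided by the Ctrl mean of that ratio (y axis, from 0), for the 3 Ctrl (blue) and 3 AclyM-KO (red) libraries. In all 9 columns the red points lie above the blue points.

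The share of all counts held by the 10 transcripts was 0.623%, 0.607% and 0.621% in Ctrl and 0.651%, 0.645% and 0.630% in AclyM-KO, a ratio of 1.04 (exact permutation p = 0.1, the smallest possible). Without *Hspa5* the share was 0.491% in Ctrl (SD 0.00314, n = 3) against 0.488% in AclyM-KO (SD 0.00762, n = 3), and the groups overlapped (exact permutation p = 0.8). Within the counts of the 10 genes, *Hspa5* made up 20.5% in Ctrl and 24.03% in AclyM-KO. *Hsp90b1* made up 21.7% and 19.9%, *Edem1* 7.42% and 6.49%, and *Xbp1* 2.75% and 2.37%. *Pdia4* made up 11.9% and 11.1%. These are parts of 1 sum, so a larger part of *Hspa5* lowers the others, and they are no measure of a fall.

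The libraries of a group were also set side by side. In Ctrl replicate 2, 3 of the 10 lay above the Ctrl mean, against 6 in each of the other 2 Ctrl libraries, and 6 genes, *Hspa5* and *Xbp1* among them, had their lowest deviation from the group mean there. In AclyM-KO, 8 of the 10 lay above the group mean in replicate 1, 4 in replicate 2 and 2 in replicate 3. The genes most like the mean standardized profile of the 10 over the 6 libraries, among 8402 genes of at least 10 CPM, were *Eri1* (Pearson r = 0.997), *Rars2* (0.983), *Tmem167* (0.981), *Vps4b* (0.980) and *Mcfd2* (0.979). These 5 genes had log2 fold changes from -0.01 to 0.01 between the groups. The mean profile of the 10 was itself at 0.204, -0.479 and 0.295 in Ctrl and at 0.407, -0.0556 and -0.371 in AclyM-KO, so the groups overlapped, and a likeness picked from so many genes over 6 libraries is a description only.

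The other genes of the response were grouped by role, and genes named below without a value were chosen after their values were seen, to complete small counts. Among 11 sensors and regulators, 1 rose (9.09%) and 2 fell (18.2%), beside 12.4% and 12.6% of all genes tested. Their median log2 fold change was -0.04. *Ern1*, which encodes the sensor IRE1 alpha, fell from a mean of 119 CPM (SD 6.74, n = 3) to 98.8 CPM (SD 0.5795, n = 3) in AclyM-KO (log2 fold change -0.26, edgeR adjusted p = 0.00181). *Creb3l2*, an ER-membrane transcription factor related to ATF6, fell from 26.9 to 17.2 CPM (log2 fold change -0.65, edgeR adjusted p = 1.53e-04). *Mbtps1*, the site-1 protease that cleaves ATF6, rose by 0.15 on the log2 scale (edgeR adjusted p = 0.0475), and with the rows of each gene summed none of the 11 rose. *Tmbim6*, the most abundant of these genes, had a log2 fold change of 0.05 (edgeR adjusted p = 0.417).

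Of 28 other ER chaperones tested, 4 rose (*Hyou1*, *Canx*, *Sdf2* and *Ppib*) and 1 fell (*Sec63*), with a median of -0.03. This is 14.3% and 3.57%, beside 12.4% and 12.6% of all genes tested. *Hyou1*, the large HSP70-like partner of BiP, rose from 258 ± 11.6 to 304 ± 3.84 CPM (SD, n = 3 each), or 0.23 on the log2 scale (edgeR adjusted p = 0.00231). *Canx*, which encodes the membrane-bound relative of calreticulin, rose by 0.14 (edgeR adjusted p = 0.0108). *Sdf2*, the paralogue of *Sdf2l1*, rose by 0.35 (edgeR adjusted p = 0.00162), and its exons lie in part under a gene on the other strand. Of 18 other ER oxidoreductases, 0 rose and 3 fell (16.7%), and the median was 0.04. These were *Ero1a*, the oxidase that recharges protein disulfide isomerase (log2 fold change -0.35, edgeR adjusted p = 4.75e-04), *Txndc16* (-0.29, 9.34e-04) and *P4hb*, which encodes protein disulfide isomerase itself (-0.14, 0.0180).

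Of 27 genes of ER-associated degradation, 6 rose (22.2%) and 0 fell, beside 12.4% and 12.6% of all genes tested. The median was 0.07. *Vcp*, the ATPase that pulls proteins out of the ER membrane, rose from 127 ± 5.11 to 166 ± 3.77 CPM (SD, n = 3 each), or 0.38 on the log2 scale (edgeR adjusted p = 5.10e-05). Of its exonic bases, 7.3% lie under a gene on the other strand, against 24.7% for *Rnf5*, which also rose. *Herpud1*, a scaffold of the degradation complex that responds to both ATF6 and ATF4, rose by 0.28 (edgeR adjusted p = 0.00186), and *Ube2j1*, its ubiquitin-conjugating enzyme, by 0.21 (adjusted p = 0.00668). *Sel1l*, the most abundant gene of this list, had a log2 fold change of -0.01 (edgeR adjusted p = 0.870). Of 35 genes of translocation and N-glycosylation, 4 rose (11.4%) and 0 fell (median 0.07). Those that rose were *Ostc*, *Tram1* with 0.20, *Magt1* with 0.15 and *Stt3b*, a catalytic subunit of oligosaccharyltransferase, with 0.15. Of 35 genes of ER-Golgi transport and KDEL receptors, 4 rose (11.4%) and 4 fell (11.4%), with a median of 0.01. *Sec13*, a coat protein of vesicles that leave the ER, was at 0.21 on the log2 scale, and *Sar1a*, *Tmed2* and *Uso1* also rose. *Ergic1* was at -0.28 and *Ergic3* at -0.19, and *Sec24a* and *Golgb1* also fell. *Copa*, the most abundant, was at 0.00 on the log2 scale (edgeR adjusted p = 0.982).

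The PERK-ATF4 branch uses neither XBP1 nor ATF6. Of its 21 tested genes, 9 rose and 4 fell (*Ppp1r15a*, *Vldlr*, *Gpt2* and *Aldh18a1*), 42.9% and 19.0%, beside 12.4% and 12.6% of all genes, and its median log2 fold change was 0.24. The 4 that fell were at -1.17 (*Vldlr*), -0.46 (*Gpt2*), -0.28 (*Aldh18a1*) and -0.25 (*Ppp1r15a*) on the log2 scale. Their edgeR adjusted p ran from 0.00118 (*Gpt2*) to 0.0493 (*Ppp1r15a*), and *Vldlr* had a mean of only 1.35 CPM in Ctrl. These 4 were also chosen after their values were seen. With the rows of each gene summed, 2 of the genes in this branch fell. *Atf4*, the transcription factor of the branch, was at 254, 308 and 296 CPM in Ctrl and at 421, 426 and 403 CPM in AclyM-KO (log2 fold change 0.54, edgeR adjusted p = 1.39e-05). *Trib3*, an ATF4 and CHOP target, rose from 14.3 ± 3.13 to 35.1 ± 2.05 CPM (SD, n = 3 each), or 1.31 on the log2 scale (edgeR adjusted p = 1.33e-06). *Slc3a2*, the heavy chain of amino acid transporters, rose by 0.57 (edgeR adjusted p = 3.44e-07). *Atf3* was at 0.09 on the log2 scale (edgeR adjusted p = 0.172). PERK is the ER member of a family of eIF2 alpha kinases, all of which act through ATF4.

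Heat shock proteins of the cytosol and mitochondria were taken as a comparison outside the ER. Of 34 tested, 8 rose (23.5%) and 1 fell (2.94%), beside 12.4% and 12.6% of all genes tested. The median was 0.11. *Hspa9*, the HSP70 of mitochondria, rose by 0.28 (edgeR adjusted p = 0.00136), close to the 0.30 of *Hspa5*, although the difference between these 2 was not tested. *Hspa1a*, the inducible cytosolic HSP70, rose from 1.67 to 4.49 CPM (log2 fold change 1.43, edgeR adjusted p = 2.36e-04). Its reads can be shared with the near-identical *Hspa1b*, and 19.0% of its exonic bases lie under a gene on the other strand. *Hsph1* fell by 0.32 on the log2 scale (edgeR adjusted p = 5.44e-04), and *Hsp90ab1*, the most abundant, was at 0.02 (edgeR adjusted p = 0.753).

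**Figure D5:**
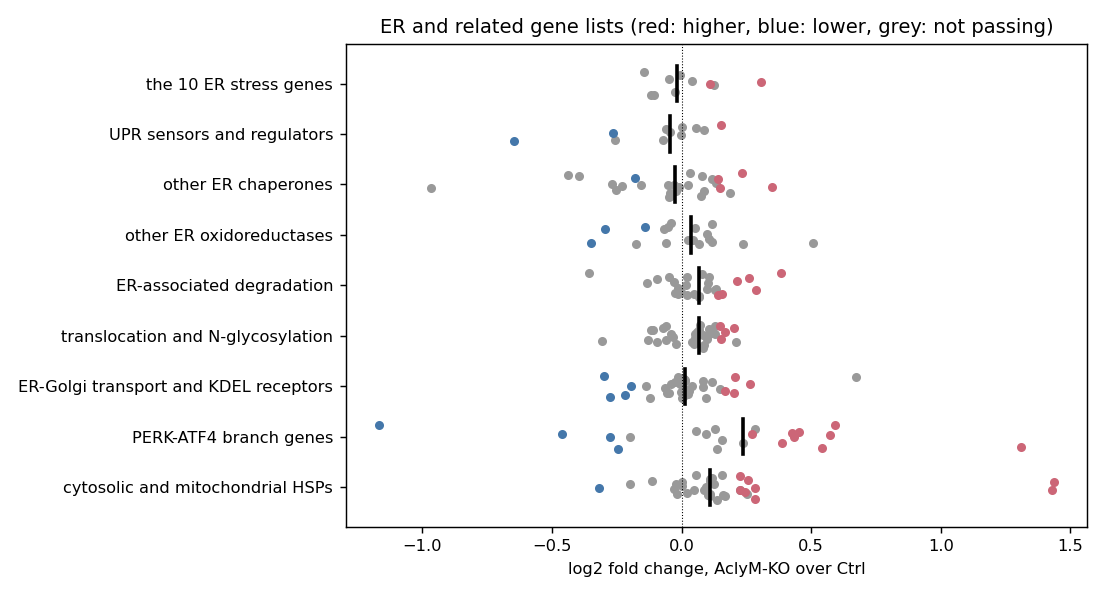
Log2 fold change, AclyM-KO over Ctrl (x axis), of each tested gene in the 10 ER stress genes and 8 lists by role; red genes rose and blue genes fell at an edgeR adjusted p under 0.05, grey genes did not pass, and the black bar is the median. The bar lies at -0.02 for the 10 genes and at 0.24 for the PERK-ATF4 branch.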

How the data were processed

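RNA-seq libraries of IL-4-treated BMDMs (3 AclyM-KO, 3 Ctrl) were analysed, grouped by the genotype and treatment labels. From stranded mRNA libraries, the authors aligned reads to mm10 with STAR 2.5.2b (CASAVA 1.8.2 is also listed in the submitters' processing notes) and deposited raw read counts. The counting program and its strand setting are not given in the sources used here. The design had assumed counts per gene, but the 35745 rows are RefSeq transcripts. Rows were named through RefSeq (35440) and GENCODE M21 (188). The 117 unnamed rows, 0.37% to 1.38% of counts, were left out. One row per gene, that with the highest total, was kept. No column of the table was left unused.

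The quasi-likelihood test of edgeR 4.0.16 (R 4.3.3) was applied to the counts after filterByExpr and TMM scaling, with genotype as the model term and Benjamini-Hochberg adjustment over 12023 genes. The common biological coefficient of variation was 0.0588, and libraries of a group differed by 2.32 to 7.57 in chi-square per gene. CPM values were scaled by TMM. RPKM values were computed from CPM and the length of the kept transcript. Permutation tests were exact and two-sided. The procedure was tested on simulated data with changes of 0.58 or more on the log2 scale. Changes as small as those of the 10 genes were not simulated. Alternatives were DESeq2 1.42.0 (used in the study), limma-voom (limma 3.58.1), other scalings, filters and rows, a fold limit, a replicate block and the removal of each library.

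Members, lists and rules were chosen with earlier results of these data known. The named genes are *Acly*, *Lyz2*, the 10 members, up to 3 genes of lowest adjusted p and the most abundant gene of each list, and the 5 genes most like the members. Genes with an ERSE and ratios between members were added after values were seen. Promoter sequences are from RefSeq on GRCm38.p6. A planned list by ER retention signal was not run, since no protein table was used here.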

Additional observations from a re-analysis of the deposited data

How the results depend on the processing

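The number of the 10 transcripts that rose was 1 with DESeq2, library totals, summed rows or the replicate block, and 0 with the fold limit of 0.58. The number that fell was 1 with limma-voom, no filter on low counts, a filter of at least 50 counts in 3 libraries or the row of lowest total, and 2 with library totals. Leaving out each library gave 1 to 2 that rose and 0 to 2 that fell, with 2 only without Ctrl replicate 2. Over all genes, 358 rose and 309 fell with the fold limit, and leaving out each library gave 1002 to 1512 and 972 to 1548, the lowest without AclyM-KO replicate 2. The median of the 10 ran from -0.04355 (without Ctrl replicate 2) to 0.00269 (without Ctrl replicate 1). Log2 fold changes of *Xbp1* past the threshold were -0.15 with limma-voom, -0.16 with library totals, -0.15 without a filter, -0.14 with the stricter filter and -0.15 with the lowest row, and leaving out each library gave -0.19 to -0.11. *Calr* lost its call at 0.107 with DESeq2, 0.0892 with library totals, 0.108 with summed rows and 0.1085 with the replicate block, and ran from 0.083 to 0.118 without each library. *Edem1* passed at -0.14 with library totals and ran from -0.138 to -0.0867 without each library, and *Sdf2l1* from 0.0559 to 0.195. No called value changed sign. The cause of these shifts was not tested. Replicate numbers did not pair the libraries: same-numbered libraries had correlations of deviations of -0.07, 0.05 and -0.03, and the replicate block left 1315 genes higher and 1329 lower. With summed rows, sensors that rose numbered 0, other chaperones that fell 0 and PERK-ATF4 genes that fell 2. Another scaling moved the median of all genes by at most 0.02. At 12151975 to 15587283 counts per library, the least abundant of the 10, *Creld2*, rested on 496 to 578 counts per library.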
